A study of Mus musculus with 6 samples.

Results

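The genes described here are 9 that mark naive and memory T cells: Tcf7, Lef1, Foxo1, Klf2, S1pr1, Ccr7, Satb1, Bach2 and Id3. They were taken by gene name from a deposited table of 38483 genes, and all 39 of their transcripts among 93480 were kept. RNA had been sequenced from splenic CD4+CD62L+ T cells of B10.RIII mice, 3 IL-17A-/- Knockout libraries and 3 IL-17A+/+ wild-type libraries, which the series calls biological replicates and numbers 1 to 3 in each genotype. The medium of all 6 cultures held 1 ng/ml of TGF-β and 10 ng/ml of both IL-23 and IL-6 for 3 days, a mix that drives T cells to the Th17 fate, while antibodies (10 µg/ml of each) blocked IL-4 and IFN-γ. The cells were selected from spleen with a Miltenyi kit, and the labels give neither the age nor the sex of the mice, nor how the Il17a allele was made. The comparison asks whether these genes are higher or lower in T cells that lack Il17a.

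These genes work as a circuit. TCF1 (encoded by Tcf7) and LEF1 are related DNA-binding proteins that can recruit β-catenin and hold T cells in a stem-like, long-lived state. FOXO1 is switched off by AKT after antigen and cytokine signals, and in resting T cells it drives Klf2; KLF2 in turn drives S1pr1, the receptor that lets T cells leave lymphoid organs, and CCR7 is the chemokine receptor that brings them into lymph nodes. SATB1 folds chromatin in T cells, BACH2 represses effector genes, and ID3 blocks E proteins.

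Total estimated counts per library ran from 47573479 to 49743762 in knockouts and from 47335736 to 48278239 in wild types. Levels per gene are given as CPM, counts scaled by library size with TMM. The deleted gene checked the labels: Il17a had 56.6, 0 and 1.42 estimated counts in knockouts 1, 2 and 3, against 7819, 9364 and 5161 in wild types 1, 2 and 3. The T cell genes Cd3e (163 to 222 CPM in knockouts, 187 to 214 CPM in wild types) and Cd4 (246 to 634 CPM in knockouts, 490 to 580 CPM in wild types) were present throughout. Summed levels of 10 B cell markers were 533, 229 and 73.4 CPM in knockouts 1 to 3, against 241, 89.3 and 63 CPM in wild types 1 to 3. The CD8 genes Cd8a and Cd8b1 summed to 658, 114 and 112 CPM in knockouts and to 423, 92.6 and 71.3 CPM in wild types, so the number 1 libraries of both genotypes held the most of both. Several of the 9 genes are also known from naive B cells or CD8 T cells, and the part of these cells in any value below was not tested. In bulk RNA, fewer cells of a type and less RNA per cell cannot be told apart. Xist was at 2.58 and 0 CPM in knockouts 1 and 2. Knockout 3 and the 3 wild types had 567 to 664 CPM. The Y-linked gene Ddx3y ran the opposite way: knockout 1 had 44.5 CPM, knockout 2 had 38 CPM and every other library at most 0.458 CPM. Knockouts 1 and 2 thus read as male and the rest as female. Within numbers 1 and 2, sex and genotype therefore cannot be told apart for any gene, whether sex-linked or not. This holds for every gene below, and the part of sex in its values was not tested.

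None of the 9 genes passed a test of genotype. In edgeR's quasi-likelihood test, 0 of 9 had an adjusted p under 0.05, against 0% of the 15121 genes tested, and 0 of 9 had an unadjusted p under 0.05, against 1.67% of all genes. DESeq2 with the replicate number as a block, which called 2.47% of the tested genes, also called 0 of the 9, as did DESeq2 without the block (0.086% of all genes called) and edgeR with it (0% called). In edgeR 3 of the 9 were higher and 6 lower in knockouts, with a median log2 change of -0.04, against 0.01 over all tested genes. The genotypes' CPM ranges did not overlap for 1 of 9, S1pr1, against 6.13% of all genes. The adjusted p in edgeR was 0.9999 for each of the 9 genes, and is not repeated below. The deleted Il17a did not pass in edgeR either, at a log2 change of -8.70 (adjusted p = 0.9999, or 0.217 with the block). DESeq2 without the block did call it (adjusted p = 0.00855). A miss in edgeR here therefore cannot tell an unchanged gene from a changed one. A miss of the threshold does not show equal levels, and the standard errors below give the precision.

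**Figure D1:**
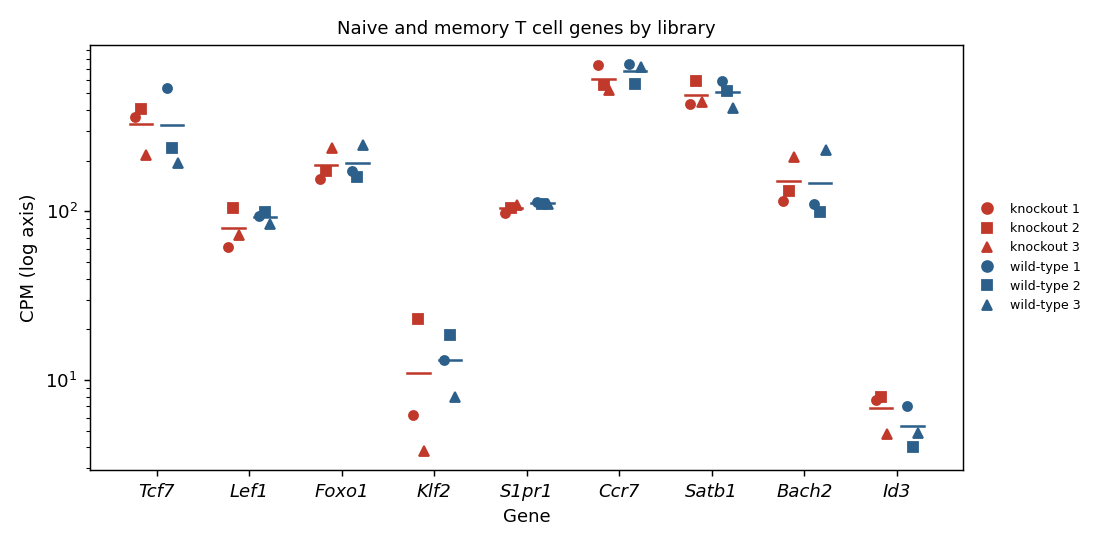
CPM (log axis) of the 9 genes in each knockout (red, left) and wild-type (blue, right) library, with the marker shape giving the replicate number and the bar the mean of 3 libraries. Bach2 and Foxo1 were highest in the number 3 library of both genotypes, Klf2 in the number 2 library of both.

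Apart from S1pr1, the 9 genes had a larger share of their variation between replicate numbers than between genotypes. With 3 numbers but 2 genotypes, values without any structure would also tend to put the larger share between numbers. The larger share alone therefore does not show, for any 1 gene, more variation by number. Id3 had 43.8% between numbers and 22.3% between genotypes, and Satb1 had 52% between numbers and 47% in neither. Of the sum of squares of log2(CPM + 0.5) over the 6 libraries, a median of 62.3% over the 9 genes lay between replicate numbers and 10.8% between genotypes. Over all tested genes the medians were 65.7% and 8.87%, so this split is that of the whole table. The share between numbers reached 94.9% for Foxo1 and 92% for Bach2, and was lowest, at 16%, for S1pr1, which had 52.9% between genotypes.

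Per length, Ccr7, Satb1 and Tcf7 were the most abundant of the 9 and Klf2 and Id3 the least. Levels here are TPM, each transcript's estimated counts divided by its length and scaled to the same total in each library. Ccr7 was highest in every library, at 292 ± 60.2 TPM in knockouts and 312 ± 67.7 TPM in wild types (SD, n = 3 each, as throughout). Satb1 averaged 172 ± 45.5 TPM in knockouts and 170.2 ± 32.8 TPM in wild types. Tcf7 averaged 127 ± 39 TPM in knockouts and 119 ± 71 TPM in wild types, below Satb1 in 5 of 6 libraries. This order rests on the short transcript Satb1-014: without it Satb1 averaged 104 TPM over the 6 libraries, and Tcf7 was above it in 4 of 6. S1pr1, Lef1 and Foxo1 lay together at 33, 32.6 and 32.1 TPM over the 6 libraries, with SDs of 2.18, 5.73 and 7.87 TPM, so that their order is within the spread. Bach2 followed at 17.5 ± 5.34 TPM in knockouts and 17.6 ± 10.6 TPM in wild types, below Foxo1 in all 6 libraries. Klf2 and Id3 were lowest, at 5.96 and 5.14 TPM over the 6 libraries, with SDs of 3.59 and 2.18 TPM, and their order is also within the spread.

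Tcf7 (ENSMUSG00000000782, GRCm38 chromosome 11, 52252371 to 52283014, minus strand) had a mean that hardly differed between genotypes but a wide spread within each. It was at 362, 407 and 217 CPM in knockouts 1, 2 and 3, against 538, 237 and 195 CPM in wild types 1, 2 and 3. The genotypes overlapped, and within numbers the knockout was lower in number 1 and higher in numbers 2 and 3, with log2 ratios of -0.57, 0.78 and 0.15. This gave a log2 change of 0.02 (SE 0.42) in edgeR and 0.11 (SE 0.23, adjusted p = 0.971) in DESeq2 with the block. Without wild-type 1, the highest library, edgeR gave 0.61. The table holds 2 Tcf7 transcripts, Tcf7-001 and Tcf7-002, and GENCODE M21 gives each of them 303 codons and a start of its own. Tcf7-001 held 97.9, 99 and 95.4% of the length-scaled counts in knockouts and 97.3, 98.9 and 95.4% in wild types. The difference of 0.221 percentage points gave p = 0.8 in a two-sided exact permutation test, which with 3 against 3 cannot go below 0.1. The rare Tcf7-002, with a start at 52283014, was at 5.38, 2.85 and 7.2 CPM in knockouts and 10.4, 1.85 and 6.29 CPM in wild types. In both genotypes it was lowest in the number 2 library.

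Lef1 (ENSMUSG00000027985, chromosome 3, 131110471 to 131224356, plus strand) was carried mostly by a transcript with an inner start. Summed per gene it was at 61.6, 105 and 72.7 CPM in knockouts 1, 2 and 3, against 93.5, 99.1 and 84.7 CPM in wild types. Knockouts 1 and 3 lay below all 3 wild types and knockout 2 above them, and the wild types were much closer together (SD 7.29 CPM) than the knockouts (SD 22.8 CPM). On average knockouts differed by a log2 change of -0.21 (SE 0.21) in edgeR and -0.26 (SE 0.16, adjusted p = 0.672) in DESeq2 with the block. Knockout 1, the lowest, was also the library with the most CD8 and B cell transcripts and the lowest Cd4; their part in its value was not tested.

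The 2 kinds of Lef1 transcript open with different coding exons, which matters because the first coding exon of LEF1 is known to hold the β-catenin binding region. In GENCODE M21, Lef1-001 has 397 codons, of which 69 lie in its first exon (131110471 to 131111678). Lef1-002 starts at 131112797, replaces those 69 codons with 3 of its own and has 331 codons, the last 328 of them shared with Lef1-001. A truncated LEF1 made from an inner promoter is known from human cells to oppose β-catenin signalling. Lef1-004 shares the start of Lef1-001 but lacks its inner coding exon of 84 bases and its last coding part of 32 bases. Its own coding part ends elsewhere and has 384 codons, while both transcripts end at 131224356. The first 60 coding bases are shown to set the 2 beginnings side by side, from GENCODE M21 (GRCm38, plus strand), with the start codon in capitals.
Lef1-001: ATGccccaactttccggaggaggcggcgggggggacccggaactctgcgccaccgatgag
Lef1-002: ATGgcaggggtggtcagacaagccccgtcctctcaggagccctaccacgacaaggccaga

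Lef1-002 held 87.6, 88.7 and 86.7% of the length-scaled Lef1 counts in knockouts 1 to 3, against 84.1, 89.1 and 83.1% in wild types 1 to 3. The inner start thus dominated in all 6 libraries, and the ranges of the genotypes overlapped. The difference of 2.23 percentage points gave p = 0.4 in the two-sided exact permutation test, whose smallest possible p is 0.1. Without wild-type 2 the difference was 4.05 points (p = 0.1, exact, again the smallest possible) and without wild-type 3 it was 1.07 points. In CPM scaled on the transcript table, Lef1-002 was at 50.5, 90.3 and 59.8 in knockouts and 73.3, 85.4 and 64.9 in wild types. Lef1-002 and Lef1-001 share all but their first exons, of 24 and 1208 bases, so the split rests on reads over the longer one. How the split depends on read coverage there was not tested.

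Lef1-004, a transcript with the outer start and the β-catenin binding exon, was the 1 of 28 tested transcripts of the 9 genes whose genotype ranges did not overlap, against 6.51% of all tested transcripts. It was at 7.21, 11.3 and 5.82 CPM in knockouts 1, 2 and 3, against 11.4, 14.1 and 15.5 CPM in wild types. All 3 knockouts lay below all 3 wild types, though knockout 2 and wild-type 1 nearly touched. Its log2 change of -0.75 (SE 0.33) did not pass in edgeR (unadjusted p = 0.0573, adjusted p = 0.9999 over 36508 transcripts). Lef1-001 did not move one way, at 1.81, 4.9 and 6.36 CPM in knockouts and 6.26, 0.154 and 2.33 CPM in wild types, a log2 change of 0.57 (SE 1.13) that came to 0.03 without wild-type 2, its lowest library, and to 1.81 without wild-type 1. Summed over the outer start, Lef1 was at 9.97, 16.5 and 12.5 CPM in knockouts and 18.8, 14.3 and 18.2 CPM in wild types, and these ranges overlapped. Of the 28 tested transcripts 0 passed in edgeR and 0 had an unadjusted p under 0.05, against 0% and 1.73% of all tested transcripts; DESeq2 with the block, which called 1.13%, called 0 of the 28 as well, as did DESeq2 without the block (0.167% of all transcripts called).

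**Figure D2:**
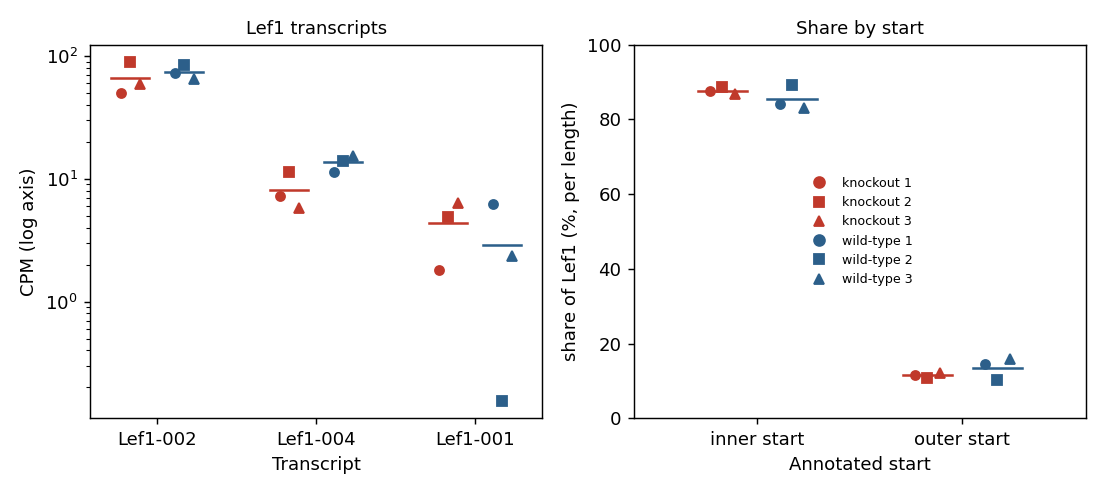
Left, CPM (log axis) of the 3 main Lef1 transcripts in each knockout (red) and wild-type (blue) library; right, the share of length-scaled Lef1 counts by annotated start, in percent, with bars at the mean of 3 libraries. The inner start held between 83.1% and 89.1% of Lef1 in every library, and Lef1-004 was lower in all 3 knockouts.

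The sequences before the starts of Lef1-001 and Lef1-002 are given because transcripts from the inner start far outnumbered those from the outer. RefSeq promoter entries (GRCm38.p6) were found for 7 of the 9 genes, 15 entries in all, and each window runs from 250 to 31 bases before the RefSeq start. Neither of the 2 shown overlaps an annotated exon. The motifs searched on both strands were CTTTGA (TCF/LEF), GTAAACA (FOXO), TGANTCA (AP-1 and BACH), GGGCGG (SP/KLF) and CCGGAAG (ETS). They occur in 12.6%, 2.8%, 6.12%, 28.5% and 4.99% of the 32817 windows of this length. RefSeq has 4 Lef1 entries, of which the nearest to each of these starts is shown. Each of the 2 windows holds 1 GGGCGG, in capitals, and none of the other 4 motifs. Of the entries not shown, a second outer one (chr3:131110047-131110266), largely the same bases, holds no match, and one far downstream (chr3:131156044-131156263) holds 2 CTTTGA.
Outer start, chr3:131110073-131110292, plus strand: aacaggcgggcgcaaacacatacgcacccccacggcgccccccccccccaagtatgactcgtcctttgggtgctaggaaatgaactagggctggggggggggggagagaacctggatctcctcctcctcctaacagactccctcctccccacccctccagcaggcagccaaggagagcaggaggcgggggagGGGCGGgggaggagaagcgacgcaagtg
Inner start, chr3:131112541-131112760, plus strand: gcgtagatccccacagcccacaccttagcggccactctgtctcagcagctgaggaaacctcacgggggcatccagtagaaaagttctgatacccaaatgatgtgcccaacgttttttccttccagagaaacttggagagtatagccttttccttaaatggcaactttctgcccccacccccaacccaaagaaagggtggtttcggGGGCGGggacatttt
The RefSeq starts lay 148 and 6 bases before those of Lef1-001 and Lef1-002 in the table. GC content was 66.4% in the outer and 52.3% in the inner window.

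Foxo1 (ENSMUSG00000044167, chromosome 3, 52268337 to 52350109, plus strand), the AKT-controlled factor at the head of the trafficking genes, followed the replicate number almost alone. It was at 156, 174 and 238 CPM in knockouts 1, 2 and 3, against 174, 160.0 and 248 CPM in wild types. The number 3 library was highest in both genotypes and the ranges overlapped. In the fits this came to a log2 change of -0.04 (SE 0.23) in edgeR and -0.05 (SE 0.11, adjusted p = 0.975) in DESeq2 with the block.

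Klf2 (ENSMUSG00000055148, chromosome 8, 72319033 to 72321656, plus strand), the quiescence factor that FOXO1 is known to drive, was the most variable of the 9, with a 6.02-fold span over the libraries. It was at 6.25, 22.9 and 3.81 CPM in knockouts 1, 2 and 3, against 13.1, 18.4 and 7.97 CPM in wild types. The knockout was lower in numbers 1 and 3 and higher in number 2, with log2 ratios of -1.01, -0.98 and 0.31 of CPM + 0.5. Number 2 was highest and number 3 lowest of the wild types, and likewise of the knockouts, an order unlike that of Foxo1. The log2 change was -0.26 (SE 0.67) in edgeR and -0.62 (SE 0.32, unadjusted p = 0.0528, adjusted p = 0.479) in DESeq2 with the block. Leaving out the number 2 libraries, DESeq2 with the block gave -1.09 and an adjusted p of 0.0732, the smallest of Klf2 over all settings tried. Without knockout 2 alone, edgeR gave -1.41 and did not pass. Klf2 rested on 188 to 1121 estimated counts per library.

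S1pr1 (ENSMUSG00000045092, chromosome 3, 115710433 to 115715055, minus strand), the exit receptor that KLF2 is known to drive, was the steadiest of the 9, with a 1.16-fold span. It was at 97.5, 105 and 109.8 CPM in knockouts 1, 2 and 3, against 113, 111 and 111 CPM in wild types. All 3 knockouts lay below all 3 wild types, by little, and in CPM scaled on the transcript table the ranges overlapped, with knockout 3 at 110.5 and wild-type 3 at 110.3. The means were 104 ± 6.18 CPM in knockouts and 112 ± 1.29 CPM in wild types, a log2 change of -0.11 (SE 0.12) in edgeR and -0.12 (SE 0.11, adjusted p = 0.869) in DESeq2 with the block. The libraries with the most and the least Klf2, knockouts 2 and 3, had S1pr1 at similar levels.

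Ccr7 (ENSMUSG00000037944, chromosome 11, 99144196 to 99155077, minus strand), the lymph node homing receptor, was at 733, 559 and 528 CPM in knockouts 1, 2 and 3, against 748, 567 and 717 CPM in wild types. Numbers 1 and 2 were nearly equal between the genotypes, with log2 ratios of -0.03 and -0.02, and the difference lay in number 3, at -0.44. The log2 change was -0.16 (SE 0.18) in edgeR and -0.17 (SE 0.13, adjusted p = 0.762) in DESeq2 with the block. Ccr7 and S1pr1 were the 2 genes of the 9 that were lower in the knockout in all 3 numbers. The share of all tested genes with the same sign in all 3 numbers is not given here, so this is a description only.

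**Figure D3:**
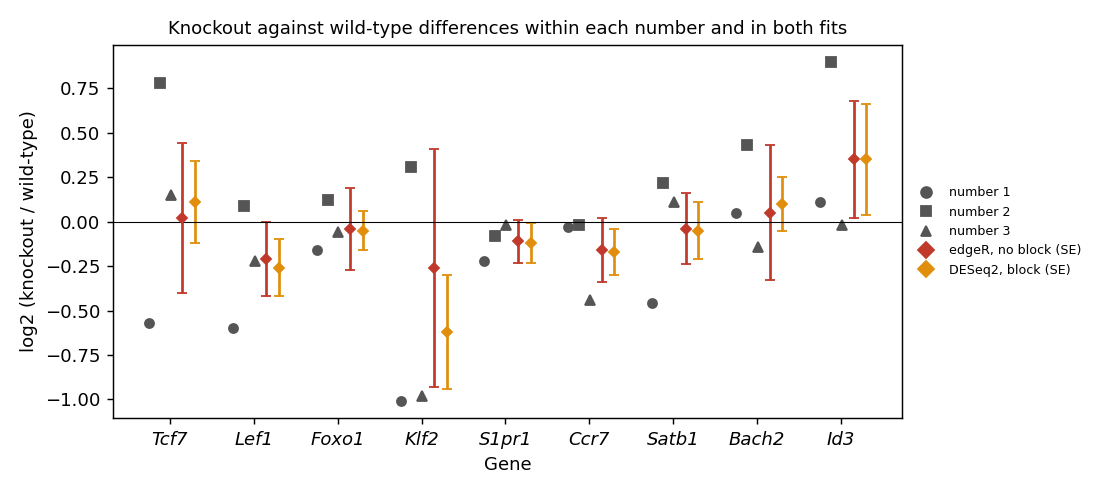
Log2 ratio of knockout to wild-type for the 9 genes within each replicate number (grey shapes, of CPM + 0.5) and from 2 fits (diamonds with SE): edgeR without the block and DESeq2 with it. No gene other than S1pr1 and Ccr7 had all 3 grey shapes on the same side of 0, a description without the share over all genes.

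Satb1 (ENSMUSG00000023927, chromosome 17, 51736187 to 51833290, minus strand), the chromatin organizer, hardly differed between genotypes as a sum but split into transcripts that ran in opposite directions across replicate numbers. The sum was at 434, 597 and 444 CPM in knockouts 1, 2 and 3, against 596, 514 and 411 CPM in wild types. The ranges overlapped, and the log2 change was -0.04 (SE 0.20) in edgeR and -0.05 (SE 0.16, adjusted p = 0.98) in DESeq2 with the block. Of its 17 transcripts 10 averaged at least 1 CPM, among them Satb1-004, the one with 795 codons, at 4.66, 4.23 and 5.48 CPM in knockouts and 4.32, 3.11 and 5.21 CPM in wild types. GENCODE M21 gives 764 codons to each of Satb1-001, Satb1-002, Satb1-005, Satb1-006, Satb1-012 and Satb1-201.

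Satb1-005, which has the outermost start (51833290), was at 134, 82.8 and 180.2 CPM in knockouts 1, 2 and 3, against 214, 60.5 and 179.8 CPM in wild types. Satb1-001, whose start (51832672) lies a short way downstream, was at 43.3, 90.9 and 10.6 CPM in knockouts and 29.5, 84.3 and 21.9 CPM in wild types. Number 2 was thus lowest for Satb1-005 and highest for Satb1-001, in knockouts and in wild types alike. As a share of length-scaled Satb1, Satb1-005 made up 30.2, 11.8 and 40.7% in knockouts and 34, 9.63 and 45.4% in wild types. Satb1-001 made up 4.53, 6 and 1.11% in knockouts and 2.18, 6.21 and 2.56% in wild types. The third start, near 51826588, held a steadier 28, 25.2 and 31.4% in knockouts and 28.1, 22.6 and 30.1% in wild types. That sum joins transcripts that also ran opposite ways. Satb1-006 was at 38.2, 19.3 and 48.2 CPM in knockouts and 59.3, 23.3 and 50.4 CPM in wild types. Satb1-007 was at 66.8, 139 and 56.8 CPM in knockouts and 82, 92.1 and 49.5 CPM in wild types. The opposite runs thus did not sort by start. Between genotypes the log2 changes were -0.19 (SE 0.50) for Satb1-005 and 0.09 (SE 0.82) for Satb1-001, neither past the test.

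**Figure D4:**
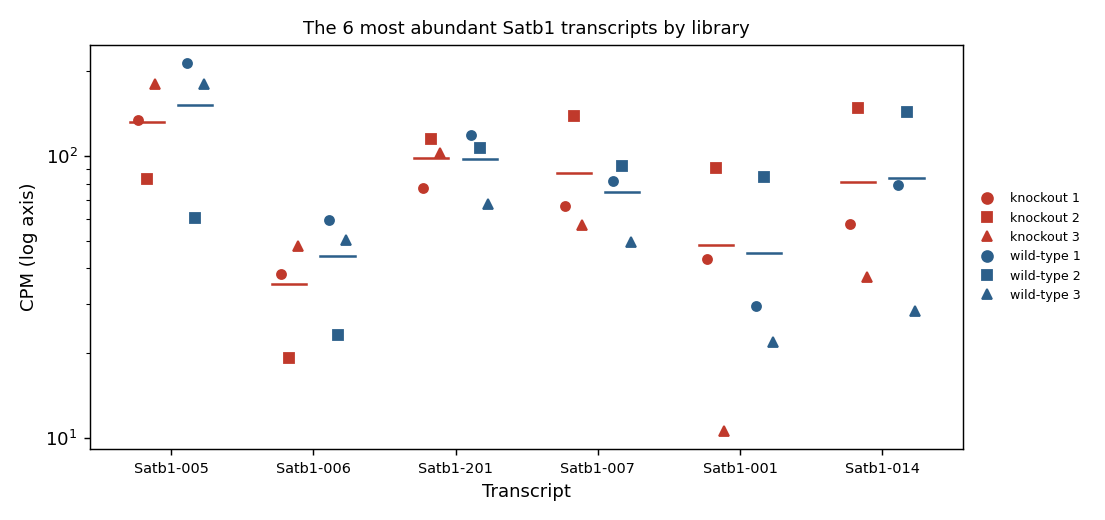
CPM (log axis) of the 6 most abundant Satb1 transcripts in each knockout (red, left) and wild-type (blue, right) library, with shapes for the replicate number and bars at the mean of 3 libraries. The squares of number 2 are lowest for Satb1-005 and Satb1-006 and highest for Satb1-001, Satb1-007 and Satb1-014 in both genotypes.

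Satb1-014, a short transcript of 1107 bases at the 3′ end of the gene (51739476 to 51742718), was highest in number 2 as Satb1-001 was. It was at 57.5, 148 and 37.2 CPM in knockouts 1, 2 and 3, against 78.8, 143 and 28.3 CPM in wild types, and 96.3% of its sum of squares lay between numbers. Because it is short, it held 33.9, 55 and 21.9% of length-scaled Satb1 in knockouts and 32.8, 59.4 and 18.6% in wild types. Without it, Satb1 averaged 104 ± 6.03 TPM in knockouts and 105 ± 32 TPM in wild types. Its identifier was not matched in GENCODE M21, so no coding length is given. The mean transcript length behind a count was 2276, 2262 and 2336 bases in knockouts 1, 2 and 3, against 2256, 2140 and 2458 bases in wild types. Number 2 was the shortest in each genotype, and the part of this in the Satb1 split was not tested. Estimated counts divide reads among overlapping transcripts, so the transcripts of 1 gene are not independent measurements.

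The windows before the 2 outer Satb1 starts (RefSeq, GRCm38.p6, minus strand) are shown because the transcripts from them ran opposite ways. Neither overlaps an annotated exon. Capitals mark GGGCGG read on either strand.
Start of Satb1-005, chr17:51833321-51833540, minus strand: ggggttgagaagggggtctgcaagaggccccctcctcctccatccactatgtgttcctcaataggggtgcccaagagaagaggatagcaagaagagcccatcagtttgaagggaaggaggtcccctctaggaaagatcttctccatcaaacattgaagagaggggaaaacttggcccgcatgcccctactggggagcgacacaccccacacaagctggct
Start of Satb1-001, chr17:51832678-51832897, minus strand: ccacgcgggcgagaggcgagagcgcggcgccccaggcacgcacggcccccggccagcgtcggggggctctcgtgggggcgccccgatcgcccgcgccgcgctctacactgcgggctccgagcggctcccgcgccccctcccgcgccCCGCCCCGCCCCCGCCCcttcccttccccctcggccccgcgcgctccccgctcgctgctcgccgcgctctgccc
The Satb1-001 window holds 3 matches to GGGCGG, which adjoin each other, and has a GC content of 84.1%. The Satb1-005 window holds none of the 5 motifs and has a GC content of 55.5%.

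Bach2 (ENSMUSG00000040270, chromosome 4, 32238804 to 32586108, plus strand), a repressor of effector genes, stood out in the number 3 libraries. It was at 115, 133 and 209 CPM in knockouts 1, 2 and 3, against 111, 98.6 and 231 CPM in wild types. Number 3 was highest in both genotypes, as for Foxo1, and the ranges overlapped. Knockouts and wild types differed by a log2 change of 0.05 (SE 0.38) in edgeR and 0.10 (SE 0.15, adjusted p = 0.944) in DESeq2 with the block. Bach2-201, from an inner start (32417435), made up 76.8, 81.7 and 78% of length-scaled Bach2 in knockouts and 68.6, 84.7 and 74.8% in wild types. Bach2-001, from the outer start (32238804) and with 839 codons as Bach2-201 has, was at 19.5, 24.8 and 40.9 CPM in knockouts and 22, 15.9 and 35.5 CPM in wild types. The window before the inner start holds 1 CTTTGA.

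Id3 (ENSMUSG00000007872, chromosome 4, 136143497 to 136145755, plus strand), the E protein inhibitor, had the largest average difference upward. It was at 7.64, 7.97 and 4.79 CPM in knockouts 1, 2 and 3, against 7.07, 4.04 and 4.85 CPM in wild types. The difference lay in number 2, with a log2 ratio of 0.90 against 0.11 and -0.02 in numbers 1 and 3. Both fits gave little more than their error, with a log2 change of 0.35 (SE 0.33) in edgeR and 0.35 (SE 0.31, adjusted p = 0.846) in DESeq2 with the block. The coding transcript Id3-001 was at 7.14, 6.53 and 4.69 CPM in knockouts and 5.98, 3.63 and 4.58 CPM in wild types.

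The genes most like each of the 9 over the 6 libraries, by Pearson r of log2(CPM + 0.5) among genes with a mean of at least 10 CPM, are given as a description. They were Atp2c1 for Bach2 (r = 0.998), D10Wsu102e for Foxo1 (r = 0.997), Fahd2a for Tcf7 (r = 0.996), Igsf23 for Klf2 (r = 0.994) and Zc3h10 for Ccr7 (r = 0.993). For Lef1, Satb1, Id3 and S1pr1 they were Eva1b (r = 0.990), Dcp1b (r = 0.986), Celf2 (r = 0.981) and Rplp0 (r = 0.978). All of these rest on 6 libraries, of which those with the same number move together.

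Other genes of the same circuits were counted in 9 lists that hold none of the 9 genes. In edgeR no gene of any list passed. DESeq2 with the block called too many unchanged genes on simulated data, so its calls below are weaker than their adjusted p. Sex also differed between the genotypes in numbers 1 and 2, and its part in these calls was not tested. In DESeq2 with the block, 3 of 15 other naive and memory genes were lower in knockouts and none higher, against 1.46% lower and 1.01% higher of all tested genes; the list's median log2 change in that fit was -0.02. The 3 were Bcl2, Igfbp4 and Myb. Myb, a transcription factor of stem-like T cells, was at 80.4, 86.5 and 65.2 CPM in knockouts 1, 2 and 3, against 116, 121 and 88.5 CPM in wild types, a DESeq2 log2 change with the block of -0.49 (SE 0.11, adjusted p = 7.31e-04) and an edgeR unadjusted p of 0.0304. Its ranges did not overlap. Bcl2, the survival gene, was at 71.7, 131 and 109 CPM in knockouts, against 82.3, 212 and 189.7 CPM in wild types (DESeq2 log2 change with the block -0.58, SE 0.15, adjusted p = 0.011). Igfbp4, a gene high in naive T cells, was at 109, 462 and 476 CPM in knockouts, against 339, 575 and 663 CPM in wild types (DESeq2 log2 change with the block -0.82, SE 0.23, adjusted p = 0.0273). All 3 were lower in the knockout within every number. Because they were picked by a fit with the block, which favours such agreement, this adds no support to the calls. Knockout 1 was the lowest library for Bcl2 and Igfbp4. None of the 3 passed in edgeR with the block, where the adjusted p was 0.342 for Myb, 0.387 for Bcl2 and 0.466 for Igfbp4.

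In the FOXO1 pathway list, 1 of 15 was lower in DESeq2 with the block. Over all tested genes that fit called 1.46% lower and 1.01% higher, the shares to set beside each count below. Sgk1, a kinase that inactivates FOXO1, was at 16.1, 47.9 and 60.3 CPM in knockouts 1, 2 and 3, against 19.3, 118 and 83.8 CPM in wild types (log2 change with the block -0.69, SE 0.21, adjusted p = 0.0445). Of 12 FOXO1 target genes 1 was lower, Foxp3, the regulatory T cell factor gene (-0.81, SE 0.19, adjusted p = 0.00298). Of 5 regulatory T cell markers 4 were lower in that fit: Foxp3, Lrrc32 (-1.33, SE 0.18, adjusted p = 1.36e-10), Gpr83 (-1.15, SE 0.34, adjusted p = 0.0327) and Tnfrsf18 (-0.52, SE 0.12, adjusted p = 0.00215). The remaining marker, Ikzf2, went the other way without passing (0.44, SE 0.33, adjusted p = 0.768), with 48.6 CPM in knockout 1 and 12 to 16.2 CPM elsewhere. The sum of all 5 markers, mostly Tnfrsf18, was 445 to 587 CPM in knockouts and 536 to 997 CPM in wild types. The part of regulatory T cells in the other values was not tested. Of 12 effector differentiation genes 1 was higher, Tbx21, the Th1 factor gene (0.74, SE 0.16, adjusted p = 7.74e-04), which like Cd8a was highest in number 1. No gene passed in DESeq2 with the block among 18 TCF/LEF partners, 15 tested genes of S1P and lymph node traffic, 9 tested KLF family genes, 5 tested E protein and ID genes and 8 BACH2 partners and targets. Among the TCF/LEF partners, Tle2, a corepressor, had the smallest unadjusted p in edgeR, 0.0423, at 14.1, 23.9 and 17.1 CPM in knockouts and 25.4, 26.8 and 27.4 CPM in wild types. The other TCF/LEF partners with the smallest p were Tle4 (edgeR log2 change 0.46, SE 0.22) and Tcf7l1 (-0.55, SE 0.41). Of the traffic list these were Sphk1, which makes S1P (-0.85, SE 0.62), and the S1P receptors S1pr4 (-0.17, SE 0.15) and S1pr3 (-0.66, SE 0.66), while the CCR7 ligand gene Ccl19 was at 0 in every library. Among KLF genes they were Klf3 (-0.39, SE 0.30), Klf11 (-0.29, SE 0.27) and Klf10 (0.14, SE 0.23). Among E protein and ID genes they were Tcf12 (0.30, SE 0.26), Id2 (0.25, SE 0.26) and Id1 (-0.66, SE 1.01). In the BACH2 list, Nfe2l2 (-0.18, SE 0.11) and Mafg (-0.23, SE 0.15) stood beside Prdm1. Prdm1, which encodes BLIMP1 and is known to be repressed by BACH2, was at 8.16, 10.7 and 16.4 CPM in knockouts and 6.5, 7.85 and 9.51 CPM in wild types (edgeR log2 change 0.56, SE 0.31). Prdm1 was higher in the knockout within every number, and did not pass.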

How the data were processed

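The 6 libraries are stranded and made from mRNA, per the labels' protocols. Per the file headers, the deposited table gives each transcript an estimated count per library, a length and a GC fraction; the last entered no test. The submitters' processing notes name GRCm38, eXpress 1.3.1 and Bowtie2 2.1.0. Annotation release and counting settings: not given in the sources used here. Estimated counts were summed per gene and rounded. edgeR 4.0.16 (quasi-likelihood, TMM, filterByExpr defaults, no block) compared knockout with wild-type over 15121 genes and, separately, 36508 transcripts, with Benjamini-Hochberg adjustment at 0.05. SE is the log2 change divided by the root of F. DESeq2 1.42.0, a replicate block, other scaling, no filter and each library left out were alternatives. All fits were tested on simulated data with changes of 2 sizes: edgeR without the block recovered none of the smaller ones, and none of either size for transcripts, while DESeq2 with the block, and for transcripts both DESeq2 fits and edgeR with the block, gave false calls well above the threshold. Other tools were R 4.3.3, limma 3.58.1 and Python 3.11.15 with matplotlib 3.10.9, scipy 1.17.1, pandas 2.3.3 and numpy 2.4.6.

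The genotypes share replicate numbers 1 to 3, whose meaning the labels do not give. Over genes, the deviations of same-numbered libraries from their genotype mean had correlations of 0.60, 0.45 and 0.64, against -0.47 to -0.17 for libraries with different numbers, and the block pairs libraries on that ground. The series calls the replicates biological but does not say that they are separate animals, so p-values measure the spread between these libraries. Chi-square per degree of freedom was 56.9 to 274 over all pairs of libraries, so none looked deposited in duplicate. A count of 0 allows up to 3 counts, for counting error only.

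The genes, lists and tests were chosen with earlier results of these data known. All 9 genes are named; transcripts are named from a mean of 1 CPM; of each list, genes past the threshold in edgeR or in DESeq2 with the block are named, or else up to 3 with the smallest p. Il17a was added as a check of the genotype labels, and Xist and Ddx3y to read the sex of the cells, which the labels do not give. Some items are not reported here. Markers of T, Th17, B, CD8, NK, myeloid, gamma-delta and regulatory T cells were summed; Adgre1 and Trdc were not found by name in the table.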

Additional observations from a re-analysis of the deposited data

How the results depend on the processing

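None of the 9 genes and none of their 28 tested transcripts passed in any setting run. Over all tested genes the count of calls was 0 in edgeR with TMM, with RLE factors, with the replicate block, without a filter and without transcripts under 300 nt, 13 in DESeq2 and 374 in DESeq2 with the replicate block; leaving out single libraries in edgeR gave 0, or 1 without knockout 1, and DESeq2 with the replicate block gave 181, 260 and 144 without numbers 1, 2 and 3, so 0 to 260 in all. Over transcripts it was 0 in every edgeR setting, 61 in DESeq2 and 411 in DESeq2 with the replicate block. Of 135 alternative log2 changes of the 9 genes 19 turned sign, and of 198 of their transcripts 35 did; the cause was not tested. With libraries left out, the log2 change ran from -0.25 to 0.61 for Tcf7, -1.41 to 0.13 for Klf2, -0.23 to 0.17 for Satb1 (0.09 without wild-type 1), -0.27 to 0.53 for Bach2 and -0.26 to 0.17 for Foxo1, whereas Ccr7 (-0.33 to -0.03), Lef1 (-0.48 to -0.06), S1pr1 (-0.17 to -0.05) and Id3 (0.03 to 0.62) kept their sign. For transcripts it ran from -0.24 to 0.54 for Bach2-201, -0.14 to 0.58 for Bach2-001, -0.44 to 0.02 for Lef1-002, -0.56 to 0.16 for Satb1-005, -0.21 to 0.18 for Satb1-201, -0.82 to 0.60 for Satb1-014, -0.27 to 0.46 for Satb1-007, -0.75 to 0.92 for Satb1-001, -0.17 to 0.50 for Satb1-012, -0.11 to 1.47 for Satb1-002, -0.31 to 0.36 for Satb1-015, -0.23 to 0.63 for Tcf7-001 and -0.69 to 0.36 for Tcf7-002; Lef1-004 stayed between -1.07 and -0.57, and Lef1-001 between 0.03 and 1.81. The replicate block turned Satb1-001 to -0.12 in edgeR and -0.12 in DESeq2, and Satb1-015 to 0.07 and 0.06, and changed no call. Without single libraries the Tcf7-001 share differed by -0.661 to 1.25 points and the Lef1-002 share by 1.07 to 4.05 points. As raw counts, not divided by length, the mean shares were 81.7% for the inner Lef1 start, 17.5% for the outer, 9.01% for the second and 43.6% for the third Satb1 start and 17.8% for the outer Bach2 start. These raw shares, and Satb1 at 104 TPM without Satb1-014, were added after seeing the data.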

Other observations

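Marker lists not given above moved as follows, as summed CPM in knockouts 1, 2 and 3 and then in wild types 1, 2 and 3. NK markers were at 573, 153 and 154 CPM in knockouts and at 315, 131 and 77.9 CPM in wild types. This sum was mostly Klrd1 and Klrk1, while Ncr1 reached at most 0.277 CPM and Klrb1c at most 2.04 CPM in any library. Myeloid markers were at 257, 368 and 117 CPM in knockouts and at 191, 231 and 72.1 CPM in wild types. Th17 markers, Il17f among them, were at 1441, 787 and 1475 CPM in knockouts and at 612, 567 and 664 CPM in wild types. Gamma-delta T cell markers were at 11.8, 38.4 and 34.1 CPM in knockouts and at 11.3, 17.4 and 14 CPM in wild types. T cell markers were at 3387, 3482 and 2886 CPM in knockouts and at 3931, 3457 and 2748 CPM in wild types. The part of these cells in the results was not tested.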
